A study of Mus with 12 samples.

Results

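The genes described here are 37 genes of DNA replication and S phase, chosen by their symbols from the 27294 genes of a deposited RNA sequencing table of mouse peritoneal macrophages. They comprise 4 E2F transcription factors, 2 E-type cyclins, 11 genes that license replication origins, 4 that activate the replicative helicase, 9 polymerase, primase, clamp and ligation genes, 4 of nucleotide supply and 3 that copy chromatin with the DNA. No cut-off on expression was used to choose them, but earlier results of these data were known when they were chosen. All 37 passed the low-count filter of the test. Each of 4 groups had 3 libraries: KO with oxLDL, KO untreated, WT with oxLDL and WT untreated. KO stands for knockout and WT for wild type, and the title of the series points to WEE1, which phosphorylates CDK1 and CDK2 and so delays mitosis and limits origin firing in S phase. The genotype label is just KO, with no gene, and the labels name no Cre driver, age, sex, dose or exposure time. The treatment label is oxLDL, oxidised low-density lipoprotein, a cholesterol-carrying particle that macrophages take up in atherosclerotic plaques, whereas the sample titles say LDL. The labels do not state that replicates are separate animals or cultures, so p-values measure the spread between these libraries, which may be technical.

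Before a cell copies its genome, ORC, CDC6 and CDT1 load the MCM helicase onto origins in G1, a step called licensing, and geminin (Gmnn) binds CDT1 to stop licensing once S phase has begun. Activator E2F factors switch on the genes for licensing, for the replication fork and for nucleotides, cyclin E with CDK2 drives entry into S phase, and the atypical factors E2F7 and E2F8 repress the same targets later. CDC45 and GINS turn loaded MCM into an active helicase, after which polymerases, the clamp PCNA, its loader RFC, FEN1 and DNA ligase I copy and join the strands. Most tissue macrophages are out of cycle at any moment, although peritoneal macrophages can renew locally by division.

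Libraries held 53588814 to 76809931 counts over 18679 to 20522 genes, and 17291 genes were tested. Wee1 averaged 1.38 ± 0.19 FPKM in KO with oxLDL, 1.48 ± 0.23 in KO untreated, 1.62 ± 0.17 in WT with oxLDL and 3.05 ± 0.23 in WT untreated (SD, n = 3 each). KO was lower than WT by a log2 difference of -0.93 ± 0.14 untreated (SE; edgeR adjusted p = 0.000139), where libraries did not overlap, and of -0.53 ± 0.14 with oxLDL (edgeR adjusted p = 0.00587), where they did. Gene-level values do not show which exons a knockout removes. The 8 macrophage markers summed to 10661 to 11301 FPKM in KO with oxLDL, 11097 to 11807 in KO untreated, 14937 to 15918 in oxLDL-treated WT and 21069 to 21466 in WT untreated, with none of them at 0. Lyz2 made up most of each sum, and gene by gene on the TMM scale 6 of the 8 were called higher and 2 lower with oxLDL in WT, while 7 were lower and 1 higher in KO than in WT, untreated and with oxLDL alike. FPKM is the count per length of transcript, scaled to library size. Fitted log2 changes come from edgeR's quasi-likelihood test on the counts with TMM scaling, which sets libraries equal at the typical gene, and calls were made at adjusted p values (Benjamini-Hochberg, across every gene in the test) under 0.05. TMM gave factors of 1.03 to 1.04 in KO, of 0.832 to 0.843 in oxLDL-treated WT and of 1.10 to 1.13 in WT untreated, so the fitted change with oxLDL in WT is less negative than the FPKM beside it, and the fitted difference of KO from WT with oxLDL is less positive or more negative. In bulk RNA, fewer cells in S phase and less RNA of these genes per cell cannot be told apart.

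On scales without TMM, the replication genes as a group stood highest in untreated WT macrophages and lowest in oxLDL-treated WT macrophages, with both KO groups between. Summed over the 37 genes, they came to 496 to 517 CPM (counts scaled to equal library totals) in KO with oxLDL, 485 to 500 in KO untreated, 359 to 360 in oxLDL-treated WT and 615 to 650 in WT untreated. No library of a WT group reached into the range of another group, while the ranges of both KO groups met. The median of the 37 mean FPKM levels was 1.51 in KO with oxLDL, 1.49 in KO untreated, 1.09 in WT with oxLDL and 2.11 in WT untreated. Over all genes tested it was 2.03 in KO with oxLDL, 1.99 in KO untreated, 1.5 in WT with oxLDL and 2.25 in WT untreated. WT untreated held the highest mean FPKM for 30 of the 37 genes, against 36.9% of all genes tested. WT with oxLDL held the lowest for 21 of 37, near the 59.1% of all genes tested, so this low place was not particular to these genes.

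**Figure D1:**
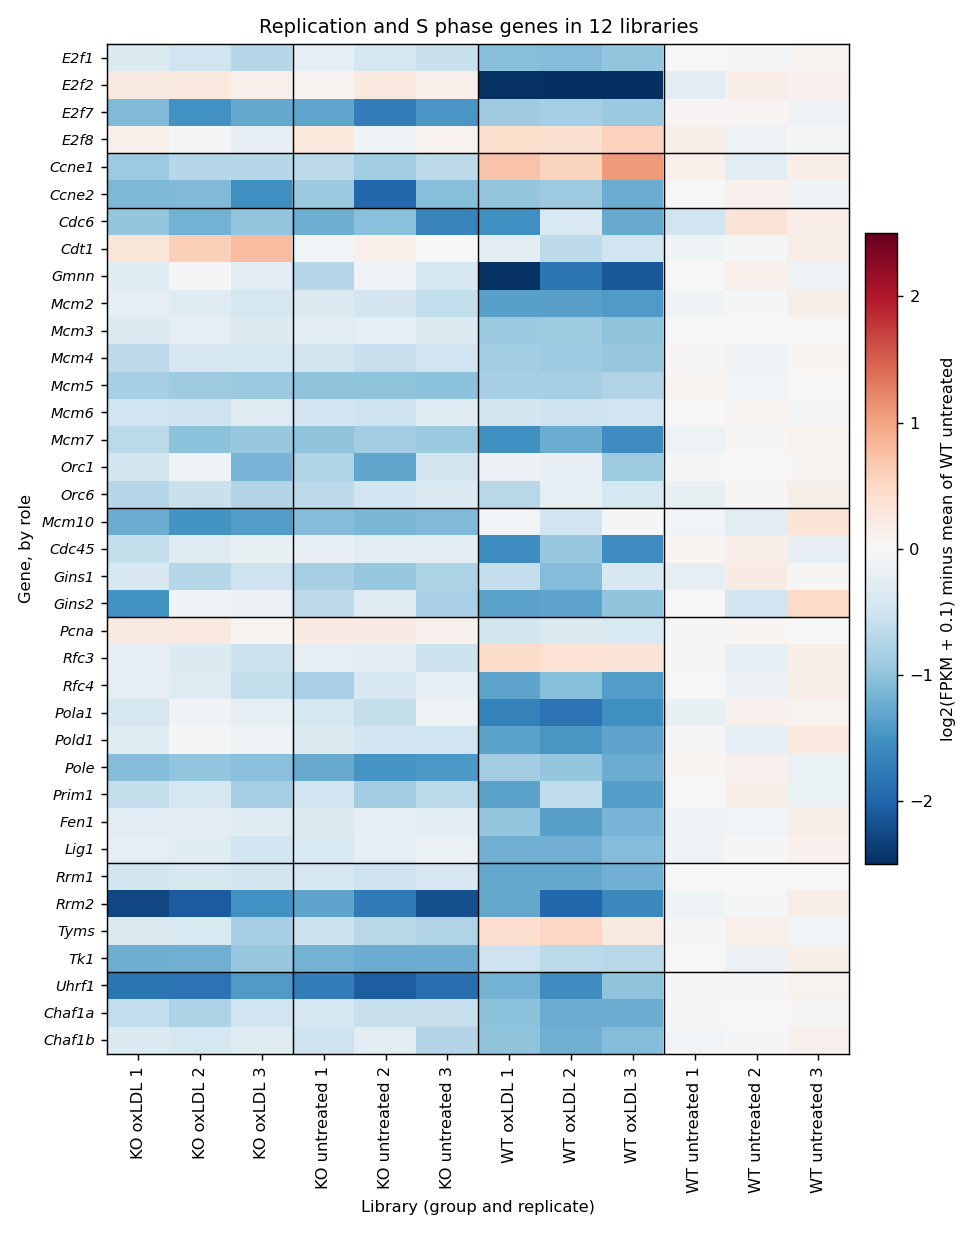
Level of each of the 37 genes (rows, by role) in each of the 12 libraries (columns), as log2(FPKM + 0.1) minus the mean of WT untreated, with blue for lower and red for higher and colours ending at 2.5 log2 units. The WT oxLDL block is blue for most rows but red for E2f8, Ccne1, Rfc3 and Tyms, which rose there.

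Levels spanned a wide range between genes. Pcna ranked 1 and Mcm3 ranked 2 in FPKM in all 4 groups, at 60.5 ± 4.6 FPKM for Pcna in KO with oxLDL and 53.6 ± 1.7 FPKM in WT untreated. Mcm3, a subunit of the MCM helicase, averaged 10.4 ± 0.5 FPKM in KO with oxLDL and 13.0 ± 0.1 FPKM in WT untreated (SD, n = 3 each). E2f7 and Orc1 stayed below 0.5 FPKM in every library and are treated only within their groups. Mean levels of at least 1 FPKM were reached by 26 of the 37 genes in KO with oxLDL, 24 in KO untreated, 20 in WT with oxLDL and 31 in WT untreated.

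In WT macrophages, oxLDL lowered most of the replication genes and raised a few. Of the 37 genes, 23 fell, 4 rose and 10 did not pass, where 51.2% of all genes tested were called, 27.2% lower and 23.9% higher. The median fitted log2 change was -0.78 over the 37 genes and -0.06 over all genes tested. Those that rose were E2f8, Ccne1, Rfc3 and Tyms. In FPKM, all 3 WT oxLDL libraries were below all 3 WT untreated libraries for 31 genes, which also held for 51.5% of all genes tested, and all were above for 4 genes, against 15.2%. Scaling by library totals alone, without TMM, moved the median of all genes tested to -0.46 and that of the 37 genes to -1.19, and called 30 of them lower and the same number, 4, higher. With that scaling 8322 of the 17291 genes tested were called lower and 2222 higher.

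In KO macrophages, treatment with oxLDL gave no called change in the replication genes. With edgeR 0 of the 37 genes passed, as did only 0.0116% of all genes tested. Of the 37, 3 had an unadjusted p under 0.05, DESeq2 called 1 and limma on log2(FPKM + 1) called 0 of the 32 it tested. The median fitted log2 change was 0.06 over the 37 genes and -0.00 over all genes tested. Cdt1, the licensing factor that brings MCM to origins, came nearest: it had 4.67, 5.69 and 6.51 FPKM in KO with oxLDL and 3.56, 4.13 and 3.78 FPKM in KO untreated. The groups did not overlap, and the fitted log2 change was 0.55 ± 0.13 (SE; edgeR adjusted p = 0.267; DESeq2 adjusted p = 0.0265). All 3 oxLDL libraries were above the untreated ones for 5 genes (Cdt1, Mcm5, Gins1, Pold1 and Pole), against 7.54% of all genes tested, and below them for Mcm10, against 5.38%.

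The difference between the oxLDL changes of the genotypes was tested by the interaction, the change in KO minus the change in WT. It passed for 26 of the 37 genes, being positive for 22 and negative for 4, where 41.7% of all genes tested passed, 22.1% positive and 19.6% negative. The 4 negative ones were E2f8, Ccne1, Rfc3 and Tyms, the genes that rose with oxLDL in WT. Their log2 changes with oxLDL in KO were -0.13, -0.06, -0.01 and 0.18, in that order. The interaction of these genes thus largely repeats their change in WT with its sign turned, and is not a separate result. The median interaction was 0.76 log2 units over the 37 genes and 0.08 over all genes tested. With library totals alone these medians were 1.17 and 0.49, 30 genes were positive and 2 negative, and the negative interactions of Rfc3 and Tyms no longer passed. Of the 17291 genes tested, 7174 were then positive and 1835 negative.

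**Figure D2:**
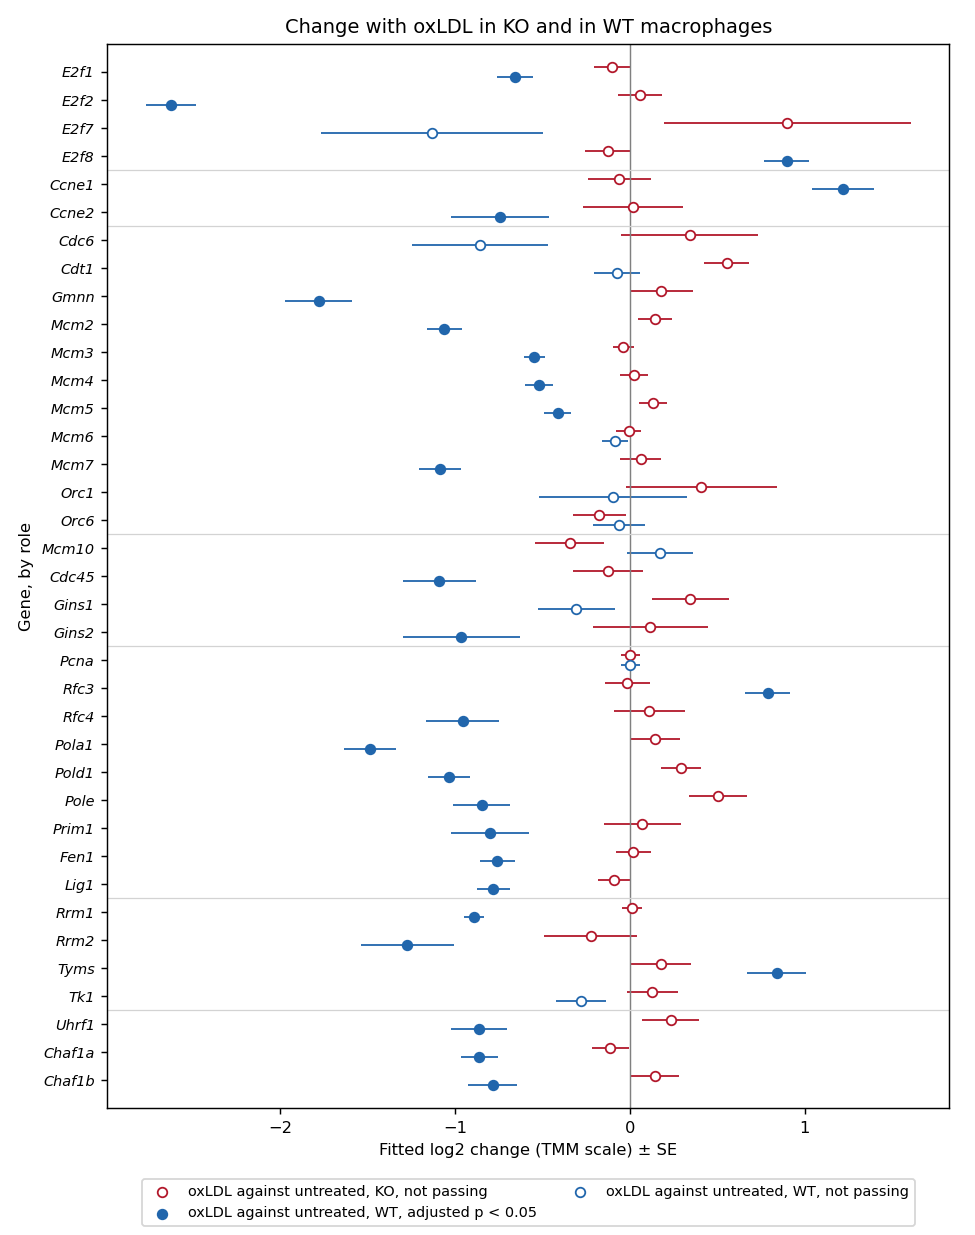
Fitted log2 change with oxLDL on the TMM scale (x axis, ± SE) for each of the 37 genes (y axis, by role) in KO (red) and in WT (blue), with filled points for adjusted p under 0.05. In KO every point is open and most lie near 0, while in WT 23 filled points lie left of 0 and 4 right of it.

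Between untreated genotypes, KO macrophages had lower levels of most replication genes. Of the 37 genes 24 fell, Pcna rose and 12 did not pass, where 31% of all genes tested were called, 16.2% lower and 14.8% higher. Without the count filter 18 fell, and E2f1, Mcm3, Orc6, Pold1, Prim1 and Chaf1b no longer passed, with edgeR adjusted p from 0.0512 to 0.0755. The median fitted log2 difference was -0.42 over the 37 genes and -0.01 over all genes tested. In FPKM all 3 KO libraries were below all 3 WT libraries for 30 genes, against 31.2% of all genes tested. This comparison shares the WT untreated libraries with that of oxLDL in WT, so the values of each are given side by side and not set against each other.

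With oxLDL on both sides, KO macrophages differed from WT in both directions. Of the 37 genes 15 were higher, 11 were lower and 11 did not pass, where 57.9% of all genes tested were called, 30.6% higher and 27.4% lower. The higher ones were E2f2, Cdt1, Gmnn, Mcm2, Mcm3, Cdc45, Pcna, Rfc4, Pola1, Pold1, Fen1, Lig1, Rrm1, Chaf1a and Chaf1b. The lower ones were E2f8, Ccne1, Mcm5, Mcm6, Mcm10, Orc6, Rfc3, Rrm2, Tyms, Tk1 and Uhrf1. The balance depended on the scaling: 57.7% of the calls were higher with TMM and 74.1% with library totals alone, which gave 20 higher and 7 lower. Among the calls over all genes tested, 52.8% were higher with TMM and 69.5% with library totals alone. The balance and its shift were therefore not particular to the replication genes. The median fitted log2 difference of 0.25 over the 37 genes stood beside 0.05 over all genes tested; it was 0.10 without WT oxLDL replicate 3, 0.13 without WT oxLDL replicate 1 and 0.15 without KO oxLDL replicate 2. With library totals alone it was 0.55, beside 0.36 over all genes tested. The comparison of KO with WT under oxLDL shares the WT oxLDL libraries with that of oxLDL in WT. Calls of a gene in both are therefore not separate results.

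**Figure D3:**
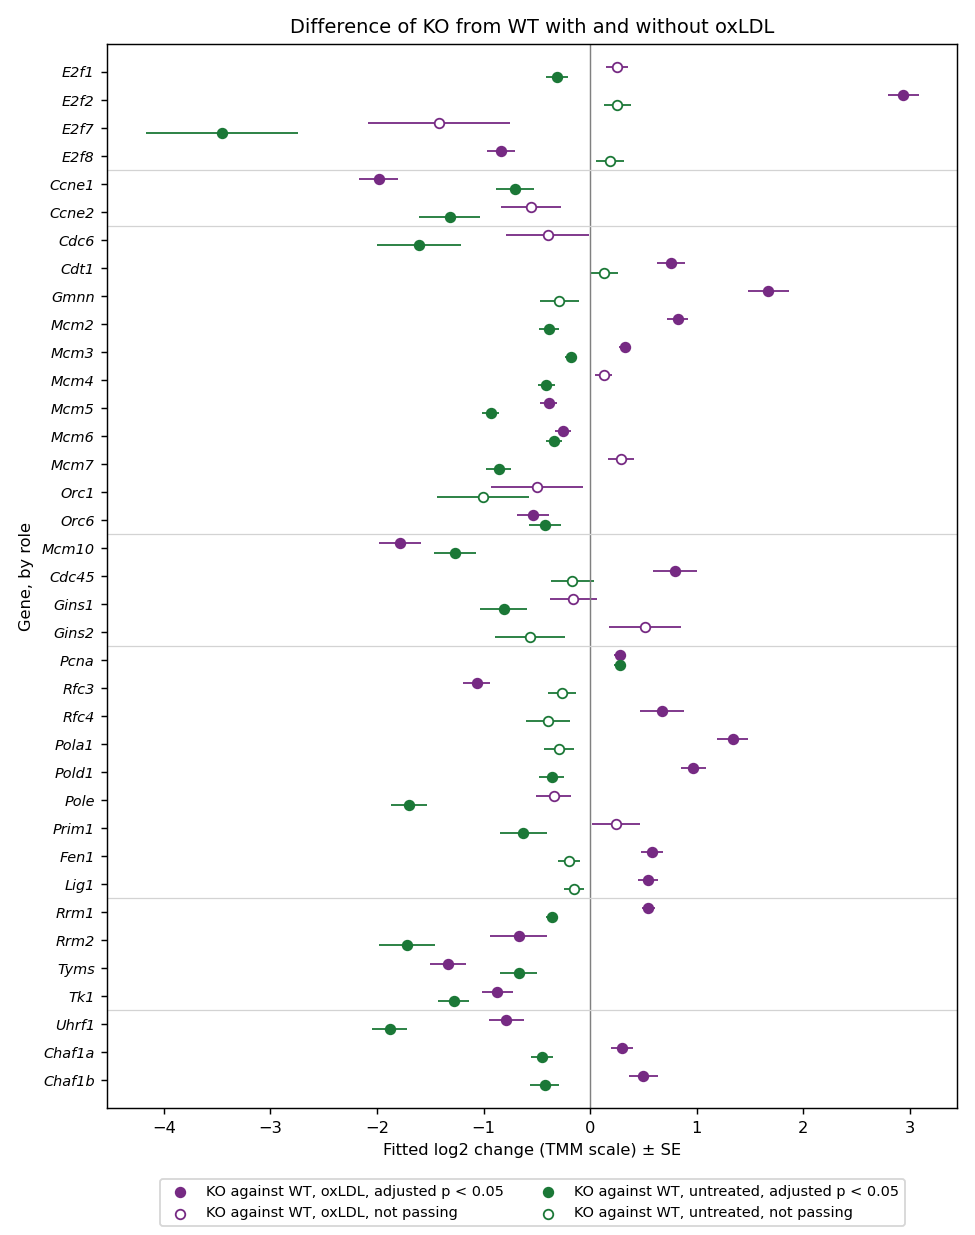
Fitted log2 difference of KO from WT on the TMM scale (x axis, ± SE) for each of the 37 genes (y axis, by role), with oxLDL (purple) and untreated (green), with filled points for adjusted p under 0.05. Untreated, 24 filled points lie left of 0 and Pcna alone lies right of it, while with oxLDL 15 lie right and 11 left.

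Among the E2F factors, oxLDL in WT moved the activator E2f2 and the repressor E2f8 in opposite directions. E2f2 (chromosome 4, 136172394 to 136196057, plus strand) had 2.47, 2.49 and 2.30 FPKM in KO with oxLDL and 2.19, 2.49 and 2.30 FPKM in KO untreated. E2f2 levels in WT were 0.292, 0.260 and 0.212 FPKM with oxLDL and 1.72, 2.34 and 2.24 FPKM untreated. The WT oxLDL libraries lay far below all 9 others, which overlapped each other, and E2f2 ranked 36 of the 37 genes there, against 13 to 20 in the other groups. It fell with oxLDL in WT at a log2 change of -2.63 ± 0.14 (SE; edgeR adjusted p = 1.12e-09), the largest fall of the 37 genes, and KO exceeded WT with oxLDL by 2.94 ± 0.15 (edgeR adjusted p = 1.93e-10). Untreated, KO differed from WT by 0.26 ± 0.13 (edgeR adjusted p = 0.16).

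E2f8 (chromosome 7, 48866429 to 48881596, minus strand) had 1.70, 1.5 and 1.33 FPKM in KO with oxLDL and 1.88, 1.43 and 1.64 FPKM in KO untreated. E2f8 levels in WT were 2.14, 2.06 and 2.37 FPKM with oxLDL and 1.74, 1.42 and 1.51 FPKM untreated. WT with oxLDL was above every other library. E2f8 rose with oxLDL in WT by 0.90 ± 0.13 log2 units (SE; edgeR adjusted p = 3.92e-05) and was lower in KO than in WT with oxLDL, at -0.84 ± 0.13 (edgeR adjusted p = 5.86e-05).

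E2f1 (chromosome 2, 154559407 to 154569892, minus strand), an activator like E2f2, had 5.65, 5.07 and 4.37 FPKM in KO with oxLDL and 6.04, 5.29 and 4.84 FPKM in KO untreated. E2f1 levels in WT were 3.41, 3.32 and 3.57 FPKM with oxLDL and 7.23, 6.96 and 7.40 FPKM untreated. The KO groups overlapped each other and lay between the WT groups. It fell with oxLDL in WT at -0.66 ± 0.10 (SE; edgeR adjusted p = 8.77e-05), and untreated KO was below WT at -0.31 ± 0.10 (edgeR adjusted p = 0.0329). The untreated difference no longer passed without KO replicate 2 or 3, or without WT replicate 1 or 3, at -0.30 to -0.24. With oxLDL, the difference of KO from WT was 0.25 ± 0.10 and did not pass (edgeR adjusted p = 0.0553). It was 0.55 and passed with library totals alone. E2f7, a repressor like E2f8, had 0 to 176 counts in a library and a fitted difference of -3.46 ± 0.71 in untreated KO against WT (edgeR adjusted p = 0.00161).

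The E-type cyclins moved apart with oxLDL in WT. Ccne1 (chromosome 7, 38097984 to 38107534, minus strand) had 0.725, 0.853 and 0.845 FPKM in KO with oxLDL and 0.889, 0.749 and 0.886 FPKM in KO untreated. Ccne1 levels in WT were 2.46, 2.18 and 3.16 FPKM with oxLDL and 1.60, 1.18 and 1.64 FPKM untreated. Every KO library was below every WT library, and both WT groups stood apart from each other. Ccne1 rose with oxLDL in WT by 1.22 ± 0.18 log2 units (SE; edgeR adjusted p = 3.94e-05), the largest rise of the 37 genes. KO was lower than WT both untreated, at -0.71 ± 0.18 (edgeR adjusted p = 0.00722), and with oxLDL, at -1.99 ± 0.18 (edgeR adjusted p = 2.41e-07).

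Ccne2 (chromosome 4, 11191351 to 11204779, plus strand) had 0.496, 0.501 and 0.344 FPKM in KO with oxLDL and 0.580, 0.233 and 0.517 FPKM in KO untreated. Ccne2 levels in WT were 0.562, 0.592 and 0.447 FPKM with oxLDL and 1.19, 1.30 and 1.09 FPKM untreated. WT untreated was above all 9 other libraries, which overlapped. In WT it fell with oxLDL at -0.74 ± 0.28 (SE; edgeR adjusted p = 0.0391), a call that ended without any single one of the 6 WT libraries, at -0.81 to -0.63, with DESeq2 size factors, at -0.70, and without the count filter, at -0.76. Untreated KO was below WT at -1.32 ± 0.28 (edgeR adjusted p = 0.00225). Ccne2 overlaps Ints8, and reads of the pair were not separable without the counting strand.

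**Figure D4:**
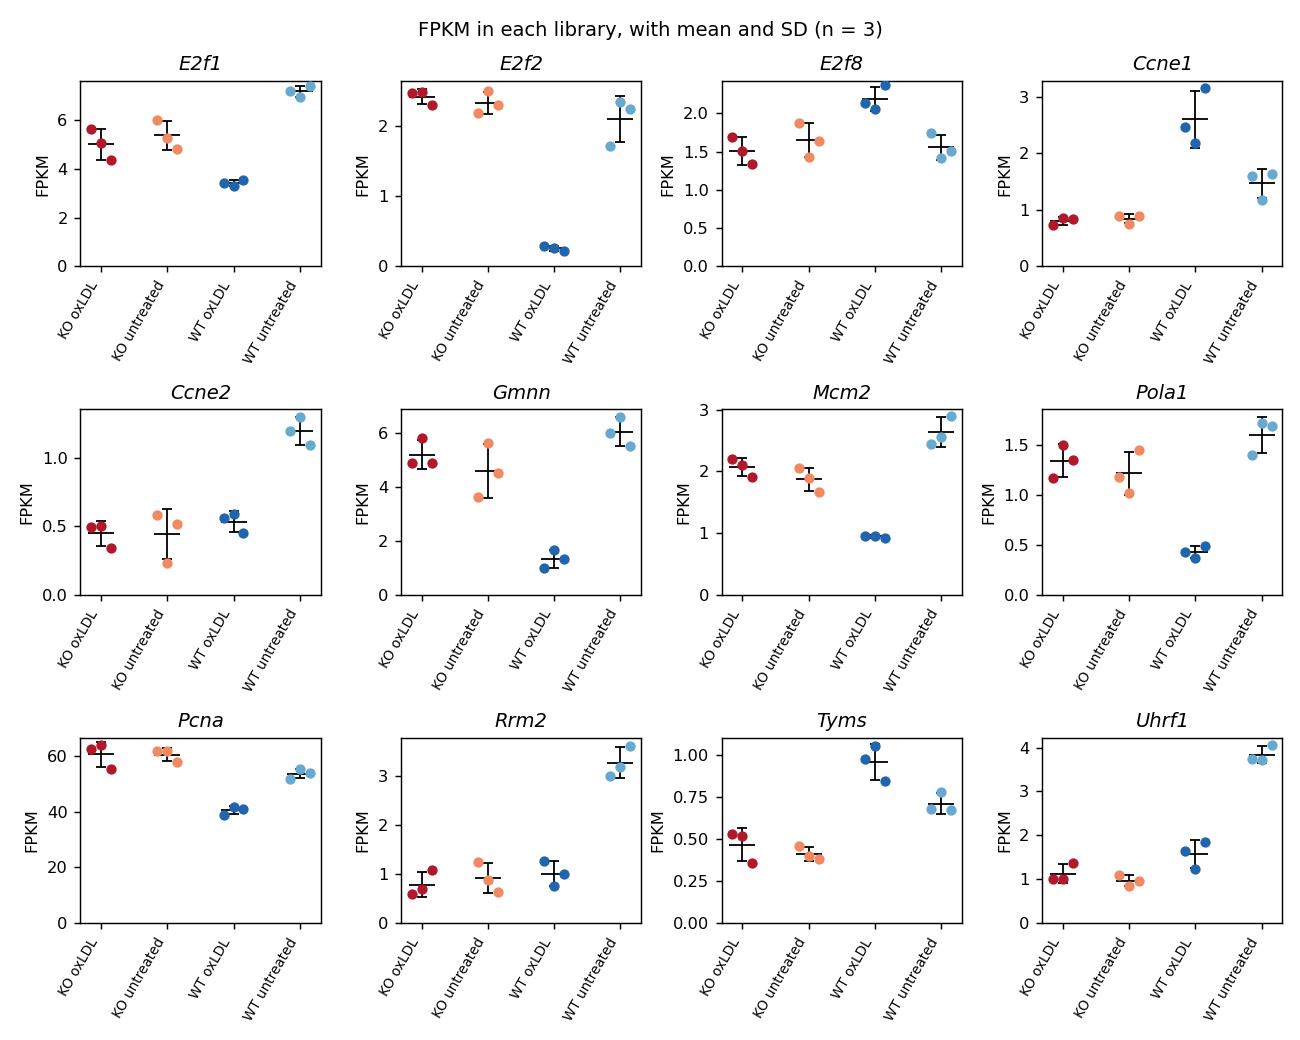
FPKM (y axes, each from 0) in each library of the 4 groups (x axes) for 12 of the 37 genes, with the mean and SD (n = 3). WT with oxLDL is lowest for E2f1, E2f2, Gmnn, Mcm2, Pola1 and Pcna and highest for E2f8, Ccne1 and Tyms, and WT untreated is highest for Ccne2, Rrm2 and Uhrf1.

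Of the 11 licensing genes 6 fell with oxLDL in WT (Gmnn, Mcm2, Mcm3, Mcm4, Mcm5 and Mcm7) and 5 did not pass (Cdc6, Cdt1, Mcm6, Orc1 and Orc6), where 27.2% of all genes tested fell. Gmnn (chromosome 13, 24751845 to 24761923, minus strand) had 4.86, 5.82 and 4.89 FPKM in KO with oxLDL and 3.61, 5.62 and 4.51 FPKM in KO untreated. Gmnn levels in WT were 1.01, 1.65 and 1.31 FPKM with oxLDL and 6.0, 6.58 and 5.5 FPKM untreated. WT with oxLDL lay below every other library and averaged 22% of WT untreated, while both KO groups overlapped. The log2 change with oxLDL in WT was -1.78 ± 0.19 (SE; edgeR adjusted p = 1.98e-06), and KO exceeded WT with oxLDL by 1.67 ± 0.19 (edgeR adjusted p = 2.83e-06). Untreated, KO differed from WT by -0.29 ± 0.18 (edgeR adjusted p = 0.273).

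Mcm2 (chromosome 6, 88883474 to 88898780, minus strand), another helicase subunit, had 2.19, 2.09 and 1.91 FPKM in KO with oxLDL and 2.05, 1.89 and 1.67 FPKM in KO untreated. Mcm2 levels in WT were 0.958, 0.957 and 0.923 FPKM with oxLDL and 2.44, 2.56 and 2.90 FPKM untreated. The KO groups overlapped between WT groups that stood clear of them on both sides. Mcm2 fell with oxLDL in WT at -1.06 ± 0.10 (SE; edgeR adjusted p = 4.13e-07) and in untreated KO against WT at -0.39 ± 0.10 (edgeR adjusted p = 0.00658). With oxLDL KO was higher by 0.82 ± 0.10 (edgeR adjusted p = 4.89e-06).

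The fitted changes of the MCM subunits, which together form the helicase ring, ranged in size, and the differences between subunits were not tested. With oxLDL in WT the fitted log2 changes were -1.09 for Mcm7, -1.06 for Mcm2, -0.55 for Mcm3, -0.52 for Mcm4 and -0.41 for Mcm5, all called, and -0.09 for Mcm6, which did not pass. In untreated KO against WT all 6 subunits fell, where 16.2% of all genes tested did. On the log2 scale the falls were 0.93 for Mcm5, 0.86 for Mcm7, 0.41 for Mcm4, 0.39 for Mcm2, 0.34 for Mcm6 and 0.18 for Mcm3. The fall of Mcm3 did not pass without KO untreated replicate 1 or 3, or without any single one of the 3 WT untreated libraries, at -0.19 to -0.14. With oxLDL on both sides, KO was higher for Mcm2 and Mcm3 and lower for Mcm5 and Mcm6. The difference of Mcm6, -0.26 ± 0.07 with TMM, was 0.05 with library totals alone, and that of Mcm5, -0.39 ± 0.08, was -0.09 and did not pass. Mcm7 overlaps Cops6 and Ap4m1, and its counts may hold reads of them.

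Of the other licensing genes, Cdc6 (chromosome 11, 98907801 to 98923940, plus strand), a loader of MCM, had 0.255, 0.208 and 0.252 FPKM in KO with oxLDL and 0.199, 0.240 and 0.119 FPKM in KO untreated. Cdc6 levels in WT were 0.141, 0.433 and 0.192 FPKM with oxLDL and 0.392, 0.779 and 0.688 FPKM untreated. The untreated genotypes did not overlap, and KO was below WT by a log2 difference of -1.60 ± 0.39 (SE; edgeR adjusted p = 0.00587). Cdt1 was higher in KO than in WT with oxLDL, at 0.76 ± 0.13 (edgeR adjusted p = 0.000175), and differed by 0.13 ± 0.13 untreated (edgeR adjusted p = 0.53). Orc6, a subunit of the origin recognition complex, was lower in untreated KO at -0.42 ± 0.15 (edgeR adjusted p = 0.0452), which no longer passed without 8 of the 12 single libraries in turn, at -0.43 to -0.34. Those were KO oxLDL replicates 1, 2 and 3, KO untreated replicates 1 and 2, WT oxLDL replicate 3 and WT untreated replicates 2 and 3.

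Of the 4 helicase-activation genes, Cdc45 and Gins2 fell with oxLDL in WT and Mcm10 and Gins1 did not pass. Of all genes tested 27.2% fell and 51.2% were called in either direction, so this count is near the share of all genes called. Cdc45 (chromosome 16, 18780447 to 18811972, minus strand), the helicase cofactor, had 0.833, 1.04 and 1.14 FPKM in KO with oxLDL and 1.12, 1.07 and 1.09 FPKM in KO untreated. Cdc45 levels in WT were 0.386, 0.632 and 0.381 FPKM with oxLDL and 1.36, 1.49 and 1.12 FPKM untreated. WT with oxLDL was below all other libraries, at a log2 change of -1.09 ± 0.21 (SE; edgeR adjusted p = 0.000471), and KO with oxLDL exceeded it by 0.80 ± 0.21 (edgeR adjusted p = 0.00435). The fall of Gins2, -0.96 ± 0.34 (edgeR adjusted p = 0.0269), did not pass without WT oxLDL replicate 1 or 2 or WT untreated replicate 1 or 3, at -0.99 to -0.68. Cdc45 overlaps Ufd1 and Gins2 overlaps Gse1.

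Mcm10 (chromosome 2, 4989714 to 5012791, minus strand), a fork protein needed to start unwinding, separated the genotypes with and without oxLDL. It had 0.258, 0.200 and 0.221 FPKM in KO with oxLDL and 0.298, 0.280 and 0.291 FPKM in KO untreated. Mcm10 levels in WT were 0.701, 0.509 and 0.713 FPKM with oxLDL and 0.701, 0.602 and 0.967 FPKM untreated. Every KO library was below every WT library, and the WT groups overlapped. Within KO, the oxLDL libraries were below the untreated ones, at a log2 change of -0.34 ± 0.20 that did not pass (SE; edgeR adjusted p = 0.834). KO was lower at -1.27 ± 0.19 untreated (SE; edgeR adjusted p = 0.000128) and at -1.78 ± 0.20 with oxLDL (edgeR adjusted p = 1.98e-06).

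Of the 9 fork genes 7 fell with oxLDL in WT (Rfc4, Pola1, Pold1, Pole, Prim1, Fen1 and Lig1), Rfc3 rose and Pcna did not pass, where 27.2% of all genes tested fell and 23.9% rose. Pola1 (chromosome X, 93304767 to 93632155, minus strand), the catalytic subunit of the polymerase that starts each strand with primase, had 1.17, 1.5 and 1.35 FPKM in KO with oxLDL and 1.17, 1.02 and 1.44 FPKM in KO untreated. Pola1 levels in WT were 0.422, 0.369 and 0.488 FPKM with oxLDL and 1.39, 1.72 and 1.69 FPKM untreated. WT with oxLDL lay below every other library. The change with oxLDL in WT was -1.49 ± 0.15 (SE; edgeR adjusted p = 8.67e-07), and KO exceeded WT with oxLDL by 1.34 ± 0.15 (edgeR adjusted p = 1.95e-06).

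The catalytic subunits of the strand-copying polymerases differed in which group was lowest. Pole (chromosome 5, 110286306 to 110337474, plus strand), of polymerase epsilon, had 0.257, 0.279 and 0.264 FPKM in KO with oxLDL and 0.215, 0.17 and 0.178 FPKM in KO untreated. Pole levels in WT were 0.314, 0.285 and 0.220 FPKM with oxLDL and 0.684, 0.716 and 0.571 FPKM untreated. WT untreated was clear of all the others, and KO was below it at a log2 difference of -1.70 ± 0.17 (SE; edgeR adjusted p = 1.66e-06). Pold1, of polymerase delta, averaged 2.98 ± 0.29 FPKM in KO with oxLDL, 2.43 ± 0.14 in KO untreated, 1.23 ± 0.06 in WT with oxLDL and 3.36 ± 0.57 in WT untreated (SD, n = 3 each). It was higher in KO than in WT with oxLDL, at 0.97 ± 0.12 (edgeR adjusted p = 5.68e-06), where Pole differed by -0.34 ± 0.17 (edgeR adjusted p = 0.0938).

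Pcna (chromosome 2, 132249162 to 132253314, minus strand), the sliding clamp, stood out from the other genes in untreated cells as the one that rose in KO. It had 62.5, 63.8 and 55.3 FPKM in KO with oxLDL and 61.8, 61.9 and 57.7 FPKM in KO untreated. Pcna levels in WT were 38.9, 41.6 and 40.9 FPKM with oxLDL and 51.8, 55.2 and 53.9 FPKM untreated. All KO libraries were above all WT libraries, and KO was higher by 0.28 ± 0.05 log2 units both untreated (SE; edgeR adjusted p = 0.00108) and with oxLDL (edgeR adjusted p = 0.000512). The untreated difference did not pass in limma on log2(FPKM + 1) without a filter, at 0.17. With oxLDL in WT the fitted change was 0.00 ± 0.05 with TMM (edgeR adjusted p = 0.978) but -0.41 with library totals alone, where the median of all genes tested was -0.46.

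Rfc3 and Rfc4 encode subunits of the complex that loads the clamp and moved in opposite directions with oxLDL in WT. Rfc3 (chromosome 5, 151642756 to 151651242, minus strand) had 2.05, 1.84 and 1.60 FPKM in KO with oxLDL and 2.01, 1.92 and 1.61 FPKM in KO untreated. Rfc3 levels in WT were 3.30, 3.06 and 2.99 FPKM with oxLDL and 2.43, 2.05 and 2.67 FPKM untreated. WT with oxLDL was above all other libraries, with a rise of 0.79 ± 0.13 (SE; edgeR adjusted p = 0.000124), and KO was below it by -1.07 ± 0.13 (edgeR adjusted p = 5.3e-06). Rfc4 fell by 0.96 on the log2 scale with oxLDL in WT (edgeR adjusted p = 0.0014). It was higher in KO than in WT with oxLDL, at 0.67 ± 0.21 (edgeR adjusted p = 0.0129), and did not pass without WT oxLDL replicate 3, at 0.59. Rfc4 overlaps Eif4a2 and Fen1 overlaps Tmem258.

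The 4 nucleotide supply genes were all called lower in untreated KO than in WT, where 16.2% of all genes tested were. Rrm2 (chromosome 12, 24708241 to 24714146, plus strand), the S phase subunit of ribonucleotide reductase, had 0.590, 0.687 and 1.07 FPKM in KO with oxLDL and 1.24, 0.878 and 0.630 FPKM in KO untreated. Rrm2 levels in WT were 1.27, 0.760 and 0.996 FPKM with oxLDL and 3.0, 3.18 and 3.61 FPKM untreated. WT untreated was far above the 9 other libraries, which overlapped. KO was lower untreated at a log2 difference of -1.72 ± 0.27 (SE; edgeR adjusted p = 0.000144), and Rrm2 fell with oxLDL in WT at -1.27 ± 0.26 (edgeR adjusted p = 0.000944). The difference with oxLDL, -0.67 ± 0.27 (edgeR adjusted p = 0.0456), was -0.37 with library totals alone, -0.65 with the replicate block and -0.65 without the count filter, none of which passed, and -0.49 to -0.69 when it did not pass without 1 library. Those libraries were KO oxLDL replicates 1 and 2, KO untreated replicate 2, WT oxLDL replicates 1 and 3, and WT untreated replicates 1, 2 and 3.

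Tyms (chromosome 5, 30058202 to 30073617, minus strand), thymidylate synthase, had 0.528, 0.520 and 0.357 FPKM in KO with oxLDL and 0.461, 0.402 and 0.381 FPKM in KO untreated. Tyms levels in WT were 0.978, 1.06 and 0.847 FPKM with oxLDL and 0.680, 0.782 and 0.675 FPKM untreated. Every KO library was below every WT library. Tyms rose with oxLDL in WT by 0.84 ± 0.17 log2 units (SE; edgeR adjusted p = 0.000715), and KO was lower at -0.67 ± 0.17 untreated (edgeR adjusted p = 0.00721) and -1.33 ± 0.17 with oxLDL (edgeR adjusted p = 8.73e-06). The rise did not pass in limma on log2(FPKM + 0.1), at 0.38. Rrm1, the large subunit of ribonucleotide reductase, fell by 0.89 with oxLDL in WT, and Tk1, thymidine kinase, was lower in KO by 1.28 untreated and 0.87 with oxLDL.

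The 3 chromatin-copying genes fell with oxLDL in WT, where 27.2% of all genes tested fell. In untreated KO against WT, which shares the WT untreated libraries, they were also called lower, where 16.2% of all genes tested were; the call of Chaf1b ended with the replicate block, at -0.43, and without the count filter, at -0.42. Uhrf1 (chromosome 17, 56303321 to 56323486, plus strand), which guides maintenance of DNA methylation behind the fork, had 1.01, 1.0 and 1.38 FPKM in KO with oxLDL and 1.09, 0.844 and 0.960 FPKM in KO untreated. Uhrf1 levels in WT were 1.64, 1.24 and 1.86 FPKM with oxLDL and 3.74, 3.72 and 4.06 FPKM untreated. WT untreated was clear of the rest, whose libraries overlapped in part. Uhrf1 was lower in untreated KO at -1.88 ± 0.16 (SE; edgeR adjusted p = 3.9e-07), and with oxLDL at -0.79 ± 0.16 (edgeR adjusted p = 0.000737), which was -0.27 and did not pass in limma on log2(FPKM + 1) without a filter. Chaf1a and Chaf1b, subunits of the histone chaperone CAF-1, were higher in KO than in WT with oxLDL, at 0.30 ± 0.11 and 0.50 ± 0.14. The call of Chaf1a ended without KO oxLDL replicate 1 or 3 or WT oxLDL replicate 2 or 3, at 0.23 to 0.29.

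Because partners moved apart, 5 ratios of FPKM within each library were computed, chosen after the values were seen and so given as descriptions. Gmnn over Cdt1 averaged 0.939 ± 0.163 in KO with oxLDL, 1.19 ± 0.17 in KO untreated, 0.510 ± 0.187 in WT with oxLDL and 1.62 ± 0.28 in WT untreated (SD, n = 3 each). E2f8 over E2f1 averaged 0.301 in KO with oxLDL, 0.307 in KO untreated, 0.637 in WT with oxLDL and 0.216 in WT untreated. For both ratios WT with oxLDL did not overlap any other group. Ccne1 over Ccne2 averaged 1.87 in KO with oxLDL, 2.15 in KO untreated, 5.05 in WT with oxLDL and 1.25 in WT untreated. Rrm2 over Rrm1 averaged 0.292 in KO with oxLDL, 0.344 in KO untreated, 0.678 in WT with oxLDL and 0.885 in WT untreated, and both KO groups lay below both WT groups. Mcm2 over Mcm3 averaged 0.199 in KO with oxLDL, 0.175 in KO untreated, 0.141 in WT with oxLDL and 0.203 in WT untreated.

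**Figure D5:**
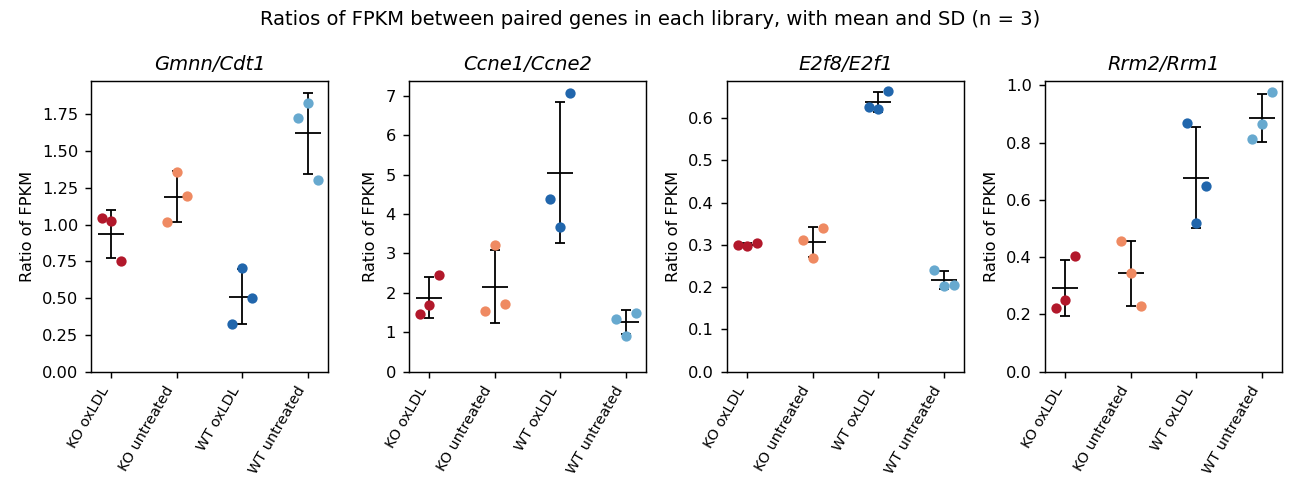
Ratio of FPKM between paired genes (y axes, from 0) in each library of the 4 groups (x axes), with the mean and SD (n = 3). For Gmnn over Cdt1 WT with oxLDL is lowest, at 0.510, and for Ccne1 over Ccne2 and E2f8 over E2f1 it is highest, at 5.05 and 0.637.

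Genes of neighbouring pathways are given beside the shares of all genes tested, which were 27.2% lower and 23.9% higher for oxLDL in WT, 16.2% lower and 14.8% higher for untreated KO against WT, and 27.4% lower and 30.6% higher for KO against WT with oxLDL. Of 46 other fork and licensing genes, 26 fell and 9 rose with oxLDL in WT. In KO, 0 of them passed with edgeR (6 at an unadjusted p under 0.05). Untreated, 13 were lower and 4 higher in KO than in WT. With oxLDL on both sides, 14 were lower and 16 higher in KO, and these counts were near the shares of all genes tested. Pola2, the partner subunit of Pola1, averaged 1.34 ± 0.22 FPKM in KO with oxLDL, 1.11 ± 0.07 in KO untreated, 6.54 ± 0.20 in WT with oxLDL and 2.67 ± 0.04 in WT untreated (SD, n = 3 each). It rose with oxLDL in WT by 1.70 ± 0.09 log2 units (SE; edgeR adjusted p = 1.1e-09), where Pola1 fell. Of 20 other nucleotide genes, 13 fell and 3 rose with oxLDL in WT. In KO against WT, 5 were lower and 4 higher untreated, and 4 were lower and 10 higher with oxLDL. Samhd1, which breaks down DNA precursors, averaged 27.9 ± 0.9 FPKM in KO with oxLDL, 28.7 ± 0.5 in KO untreated, 130.3 ± 5.7 in WT with oxLDL and 61.7 ± 1.5 in WT untreated.

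Of 25 partners of E2F and G1 to S kinase genes, 11 fell and 9 rose with oxLDL in WT. In KO against WT, 7 were lower and 6 higher untreated, and 11 were lower and 11 higher with oxLDL. Cdkn1c, an inhibitor of cyclin-dependent kinases, averaged 24.3 ± 2.2 FPKM in KO with oxLDL, 20.2 ± 0.9 in KO untreated, 0.629 ± 0.206 in WT with oxLDL and 1.53 ± 0.67 in WT untreated (SD, n = 3 each). It was higher in KO by 3.84 ± 0.24 log2 units untreated (SE; edgeR adjusted p = 8.74e-09) and by 4.92 ± 0.26 with oxLDL (edgeR adjusted p = 3.98e-10). Ccnd2, a D-type cyclin that acts upstream of E2F, averaged 0.217 FPKM in KO with oxLDL, 0.151 in KO untreated, 4.27 in WT with oxLDL and 0.565 in WT untreated. Of 22 mitosis genes, 20 were lower and 1 was higher in untreated KO than in WT. With oxLDL on both sides, 14 were lower and 2 higher in KO. In WT, 12 fell and 2 rose with oxLDL. Mki67, a marker of cycling cells, averaged 2.75 ± 0.08 FPKM in KO with oxLDL, 2.81 ± 0.30 in KO untreated, 23.6 ± 0.9 in WT with oxLDL and 14.1 ± 0.5 in WT untreated. It rose with oxLDL in WT by 1.15 ± 0.07 log2 units (edgeR adjusted p = 1.77e-09), where 23 of the 37 replication genes fell.

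Markers of other cells in the peritoneal cavity also moved with genotype and treatment. The 6 B cell markers summed to 7.27 to 7.87 FPKM in KO with oxLDL, 6.98 to 9.38 in KO untreated, 20.2 to 26.7 in oxLDL-treated WT and 21.2 to 26.0 in WT untreated. The 7 T cell markers summed to 0.898 to 1.10 FPKM in KO with oxLDL, 0.861 to 0.944 in KO untreated, 1.45 to 1.99 in oxLDL-treated WT and 2.80 to 2.89 in WT untreated. Cd3e was at 0 in all 6 KO libraries and averaged only 0.0321 FPKM in oxLDL-treated WT and 0.0595 FPKM in WT untreated. The 5 mast cell markers summed to 0.870 to 1.37 FPKM in KO with oxLDL, 0.883 to 1.26 in KO untreated, 1.96 to 2.49 in oxLDL-treated WT and 3.63 to 4.44 in WT untreated. The 6 neutrophil markers summed to 9.91 to 10.5 FPKM in KO with oxLDL, 9.76 to 10.4 in KO untreated, 10.5 to 11.3 in oxLDL-treated WT and 14.9 to 18.1 in WT untreated. S100a9, Ly6g and Retnlg were at 0 in all 6 KO libraries, but Ly6g was also at 0 in WT untreated and Retnlg in oxLDL-treated WT. Where a WT group held reads of them, its mean was near the floor, at 0.0179 to 0.0561 FPKM. The 8 fibroblast and mesothelium markers summed to 8.46 to 9.20 FPKM in KO with oxLDL, 7.63 to 8.74 in KO untreated, 10.4 to 11.7 in oxLDL-treated WT and 11.5 to 11.9 in WT untreated. The 4 dendritic cell markers summed to 0.317 to 0.513 FPKM in KO with oxLDL, 0.325 to 0.362 in KO untreated, 0.975 to 1.47 in oxLDL-treated WT and 0.340 to 0.534 in WT untreated. Single markers carried some sums and did not follow them: Mmp8 made up most of the neutrophil sum, at 12.7 FPKM in WT untreated, whereas Camp averaged 1.53 FPKM in oxLDL-treated WT and 0.306 FPKM in WT untreated. Cd4 carried the T cell sum, at 2.08 FPKM in WT untreated, whereas Lck averaged 0.808 FPKM in oxLDL-treated WT and 0.404 FPKM in WT untreated. The part of these markers in the results on replication genes was not tested.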

How the data were processed

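RNA from mouse peritoneal macrophages was sequenced as paired-end poly(A) libraries, per the labels' protocols, whose text also speaks of an adipose type. HISAT2 2.0, Bowtie 0.12.2 and build mm8 are named in the submitters' processing notes; the counting tool, annotation and strand rule were not given in the sources used here. The deposited table holds raw read counts and FPKM per gene, both made by the authors, per the file headers. The coordinates of all 37 genes overlapped GRCm38.p6 positions of the same Entrez identifiers, so positions are given as GRCm38; 16 of the 37 overlap another gene of the table and 10 a protein-coding one.

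Counts were tested with edgeR 4.0.16 (quasi-likelihood, TMM, filterByExpr, 17291 of 27294 genes kept) in R 4.3.3, with all 12 libraries in 1 fit of 4 groups, 5 contrasts and Benjamini-Hochberg adjustment over all genes tested. FPKM served for levels and ratios and was not TMM-scaled. Alternatives were DESeq2 1.42.0, other size factors, library totals, no filter, limma 3.58.1 on log2(FPKM + 1) and log2(FPKM + 0.1) computed from the deposited FPKM, a replicate block, and each library left out in turn. An exact permutation test of a single value in 3 against 3 libraries cannot go below p = 0.1. The script was tested on simulated data. The members, lists and comparisons were chosen with earlier results of these data known.

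Values per library were given for Pcna, Mcm2, Ccne1, E2f1 and Rrm2, and for the called gene with the largest change of each role in each comparison or that moved against most others. Exceptions were Mcm5, Mcm6, Orc6 and Tk1, which were lower in KO than in WT with oxLDL but were given without values per library. Genes below 0.5 FPKM throughout were named only with their group, E2f7 with its range of counts and a fitted difference. Cdt1, given per library in KO only, and Mcm3, Orc6 and others given by means or single values were named after their values were seen. No pair of libraries was identical: chi-square per degree of freedom ran from 11.3 to 32.1 within groups and from 13.7 to 34.7 between KO with oxLDL and KO untreated.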

Additional observations from a re-analysis of the deposited data

Results flagged for a closer look

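For 26 of the 37 replication genes the oxLDL change in KO differed from that in WT by the interaction test of edgeR (Benjamini-Hochberg adjusted p under 0.05), a share to be read beside the 41.7% of all genes tested. Among the E2F factors and cyclins, the log2 change in KO minus that in WT was 2.68 for E2f2, 0.56 for E2f1, -1.02 for E2f8 and -1.28 for Ccne1. Among the licensing and helicase genes, it was 1.96 for Gmnn, 1.21 for Mcm2, 1.15 for Mcm7, 0.96 for Cdc45, 0.63 for Cdt1, 0.54 for both Mcm4 and Mcm5, and 0.51 for Mcm3. Among the fork genes, it was 1.63 for Pola1, 1.35 for Pole, 1.33 for Pold1, 1.07 for Rfc4, 0.87 for Prim1, 0.78 for Fen1, 0.69 for Lig1 and -0.80 for Rfc3. For the nucleotide and chromatin genes, it was 1.10 for Uhrf1, 1.05 for Rrm2, 0.93 for Chaf1b, 0.91 for Rrm1, 0.75 for Chaf1a and -0.66 for Tyms.

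The interactions of Prim1 and Rrm2 did not pass without 8 of the 12 libraries left out in turn, at 0.72 to 0.86 for Prim1 and 0.75 to 1.10 for Rrm2, and that of Tyms without 7, at -0.68 to -0.50. For Prim1 these were KO oxLDL replicates 1 and 2, KO untreated replicates 2 and 3, WT oxLDL replicates 1 and 3 and WT untreated replicates 1 and 2. For Rrm2 they were KO oxLDL replicate 3, KO untreated replicates 2 and 3, WT oxLDL replicates 2 and 3 and all 3 WT untreated libraries. For Tyms they were KO oxLDL replicate 3, KO untreated replicates 1 and 2, WT oxLDL replicates 1 and 2 and WT untreated replicates 1 and 3. With library totals alone Tyms stood at -0.25 and Rfc3 at -0.39, and neither passed. Without the count filter Rrm2, at 1.06, and Tyms, at -0.64, did not pass, nor did Prim1 with DESeq2 size factors, at 0.82.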

How the results depend on the processing

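Over the 37 genes in 5 comparisons, DESeq2 kept the direction and the call of 183 results and added 2; leaving out 1 library kept 2120, lost 80 and added 20. The balance of directions that involves WT with oxLDL depended on the scaling. With oxLDL on both sides, the number of genes lower in KO was 11 with TMM and 7 with library totals alone. In limma it was 6 on log2(FPKM + 1), 6 on log2(FPKM + 0.1) and 7 on log2(FPKM + 1) without filter. Both filtered limma fits tested only 32 of the 37 genes, so the genes tested differed there as well as the scaling. Negative interactions numbered 4 with TMM, and 2 with library totals, with limma on log2(FPKM + 0.1) and on log2(FPKM + 1) without filter. With these 4 settings Mcm6 in KO against WT with oxLDL turned to 0.046 with totals, 0.041 in limma on log2(FPKM + 0.1) and 0.036 in both other limma fits, Pcna with oxLDL in WT to -0.41 with totals and on log2(FPKM + 0.1) and -0.40 in both other fits, and the interaction of Pcna to 0.41, 0.41, 0.40 and 0.40. These settings leave out TMM. Pcna in untreated KO against WT did not pass in limma without filter, leaving 0 genes higher. For oxLDL in KO, DESeq2 called 1 of the 37 genes (Cdt1, higher); over all genes edgeR called 2, DESeq2 98, edgeR without filter 1, the replicate block 0 and both filtered limma fits 0; the cause was not tested. Calls higher among all genes were 46.8% for oxLDL in WT with TMM and 21.1% with totals, 47.8% and 31.5% for untreated KO against WT, 52.8% and 69.5% with oxLDL, and 53.0% and 79.6% for the interaction.

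Same-numbered libraries did not deviate together (correlations -0.0449 to 0.0310 for 18 pairs), so the numbers are not taken as pairs. With the replicate block 28 of the 37 genes were called for oxLDL in WT (24 lower), 24 for KO against WT untreated (23 lower), 25 with oxLDL (15 higher), 26 for the interaction and 0 for oxLDL in KO. Of the 17291 genes tested with the block, 4576 were lower and 4027 higher for oxLDL in WT. For KO against WT, 2617 were lower and 2439 higher untreated, and 4626 were lower and 5141 higher with oxLDL. For the interaction 3642 were positive and 3285 negative. The block ended the calls of Chaf1b in untreated KO against WT and of Rrm2 in KO against WT with oxLDL, and Cdc6 passed with oxLDL in WT, at -0.92.

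Leaving out each library in turn called 25 to 28 genes for oxLDL in WT (4 higher each time, 21 to 24 lower), 19 to 25 for KO against WT untreated (1 higher each time, 18 to 24 lower), 24 to 27 with oxLDL (13 to 16 higher, 10 to 12 lower), 23 to 26 for the interaction (20 to 23 positive, 3 to 4 negative) and 0 each time for oxLDL in KO. Over all genes the ranges were 8164 to 8901, 4602 to 5503, 9411 to 9952, 6694 to 7201 and, for oxLDL in KO, 0 to 60, with 60 without WT oxLDL replicate 1. In untreated KO against WT, the call of Prim1 ended (-0.71 to -0.52) without KO oxLDL replicate 1 or 2, KO untreated replicate 2 or 3 or any WT untreated library. That of Pold1 ended (-0.37 to -0.22) without KO untreated replicate 2 or 3 or WT untreated replicate 1 or 3, that of Chaf1b (-0.45 to -0.31) without KO untreated replicate 1 or 3 or any WT untreated library, and that of Gins1 (-0.70) without WT untreated replicate 2.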
